A study of Homo sapiens with 6 samples.

Results

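The spliceosomal RNAs U4, U5, U11, U12 and U4atac and the histone-processing RNA U7 were examined in small RNA libraries of HEK293T cells, a human embryonic kidney line. Members were the count windows labelled with one of these RNA names, which left out U1, U2, U6 and its relatives and the small nucleolar RNAs U3, U8 and U13. The rule gave 62 of 53603 windows, of which 26 were labelled U4, 13 U5, 17 U7 and 2 each U11, U12 and U4atac. Control cells had received 150 nM of a control siRNA and knockdown cells 150 nM of an siRNA against La, the protein encoded by SSB, for 48 h, with 3 libraries per arm. The labels gave no statement on clones or on separate transfections beyond calling the libraries biological replicates. Each window spans 400 bp, from 150 bp before to 250 bp after a start site, so it holds the whole snRNA.

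Small nuclear RNAs form the RNA core of the spliceosome, the machine that removes introns. U4 is paired with U6 and joins U5 in a tri-snRNP that delivers the catalytic RNA to the intron, while U5 holds the exon ends in place. The minor spliceosome handles a rare class of introns with U11, U12, U4atac and U6atac in place of U1, U2, U4 and U6, and shares U5. U7 is not a splicing RNA and directs the cut that forms the 3′ end of replication-dependent histone mRNAs. All of these RNAs except U6 and U6atac are made by RNA polymerase II, whereas U6 and U6atac are made by RNA polymerase III and end in the run of U that La binds.

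The copies of a family are alike to differing degrees, which bears on how reads can be assigned. RNA sequences were taken from the GENCODE release 29 transcript set (GRCh38). RNU5A-1 and RNU5B-1 were identical at 109 of 116 aligned positions (94.0%), and the least similar pair of annotated U5 genes, RNU5D-1 and RNU5F-1, at 93 of 118 (78.8%). Of the 20-base stretches in a U5 RNA, from 22.4% (RNU5F-1) to 63.9% (RNU5A-1) also occurred in another snRNA transcript, so a short read from these stretches has no unique origin and the value of a single copy is uncertain.

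The RNAs of the other families are printed as DNA, 5′ to 3′, to show the site that the Sm protein ring binds and how close the copies of U4 are. The capitals mark AATTTTTG or AATTTTTTG, stretches of the Sm type.
RNU4-1: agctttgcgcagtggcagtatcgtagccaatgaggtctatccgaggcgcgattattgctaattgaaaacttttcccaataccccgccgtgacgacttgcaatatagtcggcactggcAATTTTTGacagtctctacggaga
RNU4-2: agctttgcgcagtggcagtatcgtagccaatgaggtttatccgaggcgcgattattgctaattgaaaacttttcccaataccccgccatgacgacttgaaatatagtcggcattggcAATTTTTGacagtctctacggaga
RNU4ATAC: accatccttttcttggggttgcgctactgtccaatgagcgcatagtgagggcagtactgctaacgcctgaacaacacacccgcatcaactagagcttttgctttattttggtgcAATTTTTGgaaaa
RNU11: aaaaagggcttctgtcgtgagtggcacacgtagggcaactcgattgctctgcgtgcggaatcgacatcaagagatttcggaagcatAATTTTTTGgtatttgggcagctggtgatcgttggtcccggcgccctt
RNU12: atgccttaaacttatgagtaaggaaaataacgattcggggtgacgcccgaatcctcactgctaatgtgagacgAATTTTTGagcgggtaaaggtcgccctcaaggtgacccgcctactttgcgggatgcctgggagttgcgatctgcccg
RNU7-1: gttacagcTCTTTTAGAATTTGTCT

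The last line gives bases 5 to 29 of U7, where the capitals join TCTTTTAG, which pairs with histone pre-mRNA, to AATTTGTCT, the start of the U7 form of the Sm site. Searched on the RNA strand, AATTTTTG occurred in 3.68% of 1900 GENCODE snRNA transcripts of any length and AATTTTTTG in 1.00%, and TCTTTTAG and AATTTGTCT occurred in 4.16% and 5.32%. RNU4-1 and RNU4-2 were identical at 137 of 141 positions (97.2%), and 80.3% and 79.5% of their 20-base stretches occurred in another snRNA transcript. RNU11 stood at the other end, with 0 of 115 such stretches shared. Of the 14 member RNAs examined, 0 ended in 4 or more T, 2 ended in 2, 6 in 1 and 6 in none, whereas the RNA polymerase III product RNU6-1 ended in 5.

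Reads lay in few of the windows. Of the 62 windows, 37 had a read in any library and 25 had none, and 15 had enough reads to be tested. The 15 comprised 11 annotated snRNA genes and 4 annotated pseudogenes. The 47 that were not tested, 42 of them annotated pseudogenes, held 218 of 619708 member reads (0.0352%). Among the 22 untested windows with a read, the total over the 6 libraries ran from 1 to 43, with RNU4-82P the highest. By raw sums, not scaled for library size, 11 of these windows had more reads in the knockdown libraries, 7 had fewer and 4 had equal numbers. No direction is read from these sums. For a window without a read, the limit that a count of 0 allows (3 counts) was between 0.774 and 1.07 CPM (TMM-scaled reads relative to library size) in a library, covering counting error only.

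Total counts over all windows ran from 3066299 to 4105806 per library. The SSB window PCG_40419, at the start of the targeted gene, had 4, 3 and 3 counts in the control and 1, 0 and 0 in the knockdown libraries, and a second, PCG_12982, had 0, 0 and 1 against 0, 2 and 0. Both were too thinly read to be tested and neither measures SSB mRNA, so the depletion of La and the identity of the cell line rest on the labels. The counts are of small RNA, and whether a read came from a whole snRNA or a piece of it was not tested.

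None of the 15 tested windows passed the threshold between the arms, an adjusted p under 0.05 over 1064 windows in edgeR's quasi-likelihood test. Over all tested windows 4.79% were called lower and 0.658% higher, a balance that turned with upper quartile factors (36 lower and 58 higher). Without La knockdown replicate 1, 0 of 1121 windows were called in either direction. Before adjustment, 1 of the 15 was lower with a p under 0.05 (RNU7-1) and 0 were higher, against 14.2% and 9.68% of all tested windows. With upper quartile factors these counts were 0 lower and 2 higher (RNU4ATAC and RNU12-2P), and without La knockdown replicate 3 they were 5 lower and 0 higher. The fitted log2 fold change was below 0 for 11 of the 15, against 53.2% of all, and ran from -0.86 (RNU11) to 0.69 (RNU12-2P). The median was -0.29, against -0.05 over all tested windows, and it turned to 0.04 under upper quartile factors, which moved the median of all windows by 0.32. The median is over 8 U5 copies and 7 others, and copies alike in sequence may share reads. The count of fitted falls went from 7 with upper quartile factors to 13 without La knockdown replicate 2.

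**Figure D1:**
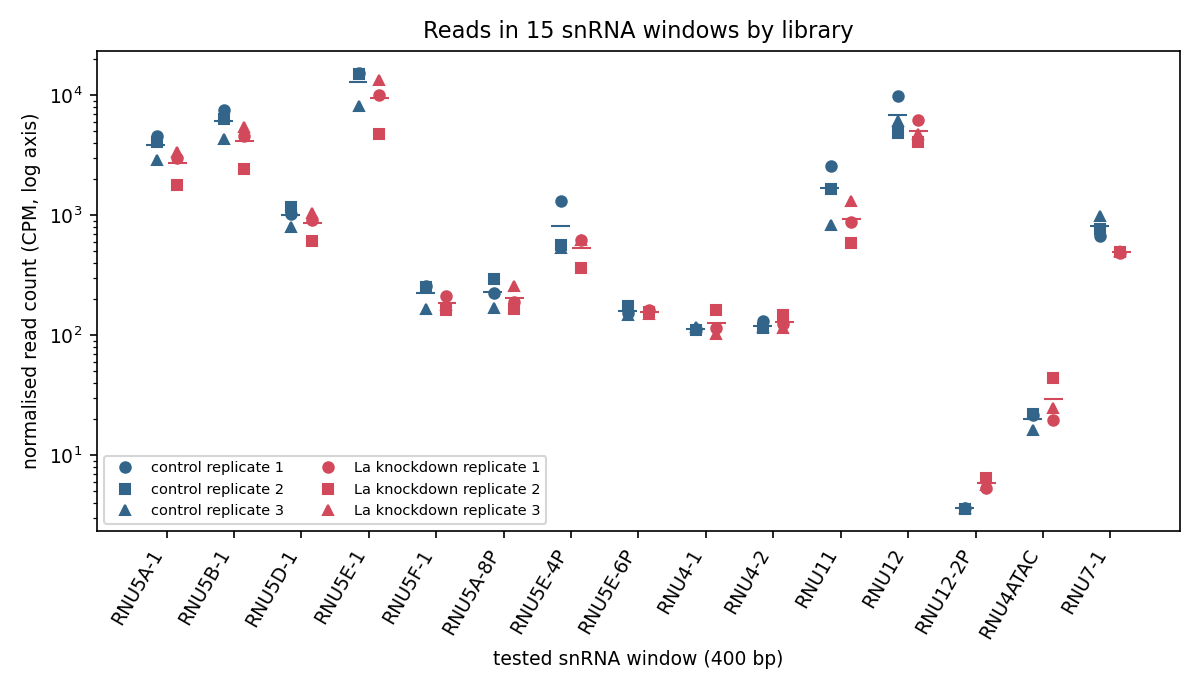
Normalised read counts (CPM on a log axis) of the 15 tested snRNA windows in each of the 6 libraries, with circles, squares and triangles for replicates 1, 2 and 3, blue for control, red for La knockdown, and short lines for arm means. The arms overlap in every window except RNU7-1, where the 3 knockdown libraries lie below all controls, and RNU12-2P, where they lie above.

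U5, the RNA shared by both spliceosomes, gave the most member reads. RNU5E-1 (chromosome 1, window 11908001 to 11908400, RNA at 11908152 to 11908272 in RefSeq, within an exon of the lincRNA AL021155.2) ranked 8 of the 1064 tested windows by mean CPM. It had 15481, 15090 and 8227 CPM in control replicates 1 to 3 and 10026, 4790 and 13476 CPM in La knockdown replicates 1 to 3. The arms overlapped, since knockdown replicate 3 exceeded control replicate 3, and the log2 fold change was -0.46 (95% interval -1.27 to 0.36, edgeR adjusted p = 0.407). This value was -0.15 without knockdown replicate 2, -0.87 without knockdown replicate 3, -0.70 without control replicate 3 and -0.14 with upper quartile factors.

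RNU5B-1 and RNU5A-1 lie 8626 bp apart on chromosome 15, in windows 65304527 to 65304926 and 65295901 to 65296300, and RNU5A-1 lies in an intron of PARP16. RNU5B-1 had 7529, 6352 and 4318 CPM in the controls and 4578, 2418 and 5402 CPM in the knockdown libraries. RNU5A-1 had 4605, 4065 and 2916 CPM in the controls and 2978, 1777 and 3373 CPM in the knockdown libraries. In both genes the order of the 6 libraries was the same, with control replicate 1 highest and knockdown replicate 2 lowest. Neither difference passed the threshold (log2 fold changes -0.55 with a 95% interval of -1.26 to 0.15 and -0.51 with one of -1.14 to 0.11, edgeR adjusted p = 0.278 and 0.265). Both became -0.30 without knockdown replicate 2, and without knockdown replicate 3 they became -0.86 and -0.77. With upper quartile factors they were -0.23 and -0.19.

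RNU5D-1 and RNU5F-1, copies with fewer reads, also overlapped between the arms. RNU5D-1 (chromosome 1, 44730920 to 44731319) had 1002 ± 190 CPM in the controls and 855 ± 224 in the knockdown arm, and RNU5F-1 (44721652 to 44722051, in an intron of ARMH1) had 226 ± 51.7 and 185 ± 26.5 CPM (SD, n = 3 each). Their edgeR adjusted p-values were 0.570 and 0.460. Of the annotated pseudogenes, RNU5E-4P, a neighbour of RNU5E-1 on the opposite strand (11909678 to 11910077), had 807 ± 441 and 536 ± 151 CPM. Its control replicate 1, at 1316 CPM, stood apart from the other 5 libraries, which lay between 362 and 624, and without that library its log2 fold change went from -0.59 to -0.05. RNU5A-8P (210374018 to 210374417, in an intron of HHAT) had 230 ± 63.5 and 204 ± 46.8 CPM. RNU5E-6P had 158 ± 15.2 and 157 ± 5.44 CPM, a log2 fold change of -0.02 with a 95% interval of -0.51 to 0.48. All 8 tested U5 windows had a fitted value below 0 with TMM factors, but RNU5E-6P turned above 0 with RLE factors, with DESeq2 and when the 50 most-read windows were left out of library size, and RNU5E-6P, RNU5A-8P, RNU5D-1 and RNU5F-1 did so with upper quartile factors. Without control replicate 2, RNU5E-6P and RNU5A-8P also turned above 0 (0.05 and 0.03).

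Summed over copies, among which reads may be split, U5 windows held 117697, 95058 and 66965 counts in the controls and 55137, 35600 and 78131 in the knockdown libraries. As a share of all counts this was 2.57% ± 0.560 in the controls and 1.77% ± 0.716 in the knockdown arm (SD, n = 3), a difference of -0.80 percentage points within the spread between libraries (two-sided exact permutation p = 0.2, smallest possible 0.1, adjusted over 7 classes 0.35). Without knockdown replicate 2 the difference was -0.431 percentage points. The edgeR fit of the summed family gave a log2 fold change of -0.48 (95% interval -1.19 to 0.23, adjusted p = 0.333). Of the 6 families summed in this way 0 were called lower and 0 higher, against 4.83% and 0.664% of the units in that fit.

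The makeup of the U5 reads by copy was then compared. RNU5E-1 made up 50.7% ± 3.16 of U5 counts in the controls and 50.6% ± 4.57 in the knockdown arm, and RNU5B-1 24.1% ± 1.23 and 22.8% ± 0.673 (SD, n = 3). RNU5A-1 made up 15.5% ± 1.23 and 15.3% ± 1.63. RNU5D-1 held 4.07% ± 0.674 and 4.91% ± 0.819, and the other 4 tested copies held under 5% each in every library. None of the 8 shares differed beyond the spread (exact permutation p from 0.3 to 1, adjusted over 8 copies 0.8 or 1). With 3 libraries per arm this test cannot go below 0.1, so an unchanged makeup is not shown. Knockdown replicate 2, the lowest of all libraries in 7 of 8 U5 windows, had the smallest share of RNU5E-1 (45.9%) and the largest of RNU5F-1 (1.55%).

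U4, the partner that keeps U6 inactive until splicing begins, had far fewer reads than U5. Its RNU4-2 and RNU4-1 genes lie 1334 bp apart on chromosome 12 (windows 120291654 to 120292053 and 120292988 to 120293387). RNU4-2 had 130, 115 and 116 CPM in the controls and 125, 148 and 115 CPM in the knockdown libraries. RNU4-1 had 113, 112 and 116 CPM in the controls and 116, 162 and 103 CPM in the knockdown libraries. Apart from knockdown replicate 2, which was the highest library in both genes, the 6 libraries lay close together. The log2 fold changes were 0.10 (95% interval -0.40 to 0.61) and 0.16 (95% interval -0.39 to 0.71), with edgeR adjusted p-values of 0.772 and 0.673, and both turned below 0 without knockdown replicate 2 (-0.02 and -0.07) and without a filter on low counts (-0.16 and -0.11). Intervals of this width do not show equal levels. The other 24 U4 windows, labelled for dispersed copies, held 101 reads in all, and 13 of them had none.

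Per 100 bases of RNA, RNU5E-1 stood at 10777 ± 3400 CPM in the controls, RNU5B-1 at 5230 ± 1401, RNU4-2 at 85.4 ± 6.01 and RNU4-1 at 80.6 ± 1.63 (SD, n = 3). The 2 U4 genes did not differ in this value beyond their spread, but reads may be split between copies so alike, so equal levels are not shown. Every U5 gene annotated as functional lay above both. Whether reads came from whole RNAs or pieces was not tested, so the division by length is a description only. The U5 windows together held 73.1 to 122 counts per U4 count in the control libraries and 81.0, 32.8 and 110 in knockdown replicates 1 to 3. On the log2 scale this ratio, which needs no scaling between libraries, was 6.68 ± 0.427 and 6.05 ± 0.911 (SD, n = 3, exact permutation p = 0.4, adjusted over 8 ratios 0.64). In the controls the ratio of U4 to U6 counts ran from 0.595 to 0.902. In the knockdown libraries this ratio ran from 0.686 to 1.02, which overlapped the controls (exact permutation p = 0.5). With 3 libraries per arm this test cannot go below 0.1. It therefore cannot decide whether the partner made by RNA polymerase II and the partner made by RNA polymerase III changed alike.

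**Figure D2:**
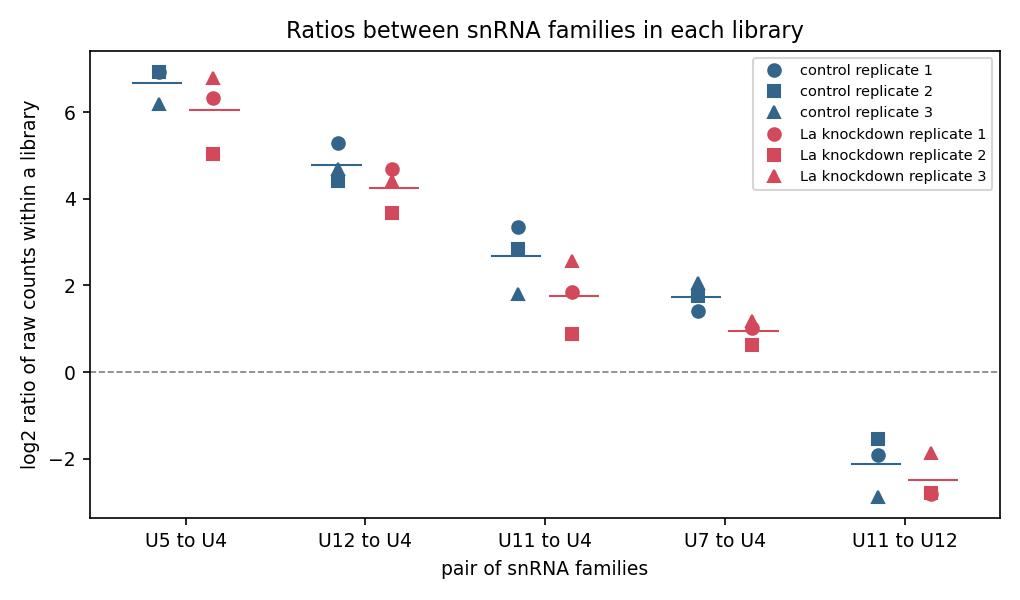
Log2 ratios of raw counts between snRNA families (U5, U12, U11 and U7 to U4, and U11 to U12) within each library, with symbols for replicates 1 to 3, blue for control, red for La knockdown and lines for arm means. The arms overlap for 4 of the pairs, and for U7 to U4 the knockdown libraries (0.63 to 1.19) lie below the controls (1.41 to 2.07).

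Among the RNAs of the minor spliceosome, RNU11 and RNU12 were read often and RNU4ATAC seldom. U11 binds the 5′ splice site of the rare introns. The RNU11 window (chromosome 1, 28648450 to 28648849, RNA at 28648600 to 28648734) had 2571, 1651 and 832 CPM in the controls and 882, 590 and 1307 CPM in the knockdown libraries. The controls themselves were spread more widely than the arm means were apart, and knockdown replicates 1 and 3 both lay above control replicate 3. The log2 fold change of -0.86 was the lowest of the 15, with a 95% interval of -1.76 to 0.04 (edgeR adjusted p = 0.222).

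RNU11 was the single member called under any alternative. Without a filter on low counts its log2 fold change was -1.11 (edgeR adjusted p = 0.0164), and it was 1 of 37 members then tested. In that fit 0.476% of 21830 windows with any read were called lower and 0.0183% higher, and 1064 of these windows had passed the filter. The fitted values of all 15 members tested with the filter were lower in it, for instance RNU7-1 at -0.95 and RNU4-2 at -0.16. The lower value was therefore not particular to RNU11. The RNU11 value moved to -0.43 without control replicate 1 (adjusted p = 0.594), and its adjusted p was 0.0774 with a replicate block.

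U12 pairs with the branch point of the rare introns. The RNU12 window (chromosome 22, 42615094 to 42615493, RNA at 42615244 to 42615393) ranked 53 of the tested windows, with 9783, 4845 and 6113 CPM in the controls and 6248, 4063 and 4752 CPM in the knockdown libraries. The arms overlapped, and the log2 fold change was -0.46 (95% interval -1.10 to 0.18, edgeR adjusted p = 0.304), which became -0.13 without control replicate 1. A window labelled U1, U1_53124, overlaps the RNU12 window, so a read there may be counted under both labels. The ratio of U11 to U12 counts, RNAs that work in one particle, ran from 0.136 to 0.340 in the controls and from 0.141 to 0.275 in the knockdown libraries (exact permutation p = 0.7). Control replicates 2 and 3 alone spanned the whole range of the 6 libraries.

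The pseudogene window RNU12-2P (chromosome X, 47132521 to 47132920) had a fitted value of the opposite sign. It had 14, 12 and 14 counts in the controls and 15, 22 and 18 in the knockdown libraries, or 3.59 ± 0.0552 and 5.82 ± 0.569 CPM (SD, n = 3). The ranges of CPM did not overlap, as was so for 14.1% of all tested windows in this direction, and the log2 fold change of 0.69 did not pass the threshold (95% interval -0.04 to 1.43, edgeR adjusted p = 0.225). Its RNA was identical to RNU12 at 141 of 156 aligned positions (90.4%) and 24.8% of its 20-base stretches occurred elsewhere among snRNA transcripts, so its few reads cannot be assigned with certainty beside RNU12, which had at least 13852 in each library.

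RNU4ATAC, the minor counterpart of U4, lies on chromosome 2 (window 121530730 to 121531129, RNA at 121530880 to 121531009) in an intron of CLASP1. It had 83, 75 and 63 counts in the controls and 55, 150 and 79 in the knockdown libraries, or 21.6, 22.1 and 16.3 against 19.6, 44.0 and 24.8 CPM. The mean was higher in the knockdown arm through replicate 2. With all libraries the log2 fold change was 0.57 (95% interval -0.21 to 1.34, edgeR adjusted p = 0.304), and without that library it was 0.14. Per 100 bases RNU4ATAC stood at 15.7 ± 2.54 CPM in the controls, below RNU4-1 and RNU4-2 in every control library. U6atac windows, its partner, held 2 to 5 counts per library, too few for a ratio to be read.

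RNU7-1 was the single tested member whose CPM lay lower in every knockdown library than in any control. RNU7-1 (chromosome 12, window 6943666 to 6944065, RNA at 6943816 to 6943878) had 2570, 2607 and 3833 counts in the controls and 1361, 1675 and 1607 in the knockdown libraries. Scaled, these were 668, 768 and 989 CPM against 486, 491 and 504 CPM. The 3 knockdown libraries lay within a narrow band below every control, as was so for 17.9% of all tested windows. The log2 fold change was -0.71 (SE 0.23, 95% interval -1.23 to -0.19), a ratio of 0.611, with an unadjusted p of 0.0122 and an edgeR adjusted p of 0.114. It therefore did not pass the threshold, although its interval was the single one of 15 that excluded 0.

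Its direction held in all alternatives run, from -0.95 without a filter to -0.40 with upper quartile factors, with adjusted p-values from 0.0883 to 0.288. The U7 windows held 0.0843% ± 0.0240 of all counts in the controls and 0.0484% ± 0.00334 in the knockdown arm (SD, n = 3, adjusted 0.35 and unadjusted p = 0.1 by exact permutation, which can go no lower). Without control replicate 3 the difference went from -0.0359 to -0.0230 percentage points. Outside rRNA windows the U7 shares overlapped, with 0.127%, 0.185% and 0.263% in the controls and 0.133%, 0.166% and 0.124% in the knockdown libraries (exact permutation p = 0.3). Set against U4 in the same library, the U7 counts gave ratios of 2.66, 3.36 and 4.19 in the controls and 2.01, 1.55 and 2.28 in the knockdown libraries, without overlap (exact permutation p = 0.1, adjusted 0.64). RNU7-1 lies in an untranslated exon of C12orf57 on the same strand, and opposite an exon of the antisense RNA U47924.2. Reads of C12orf57 in this stretch cannot be told apart from U7 by strand, and those of U47924.2 can be only where strand was used. The other 16 U7 windows held 48 reads, and RNU7-19P, with 33 of them, had 3, 4 and 4 counts in the controls and 7, 10 and 5 in the knockdown libraries, too few to be tested.

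**Figure D3:**
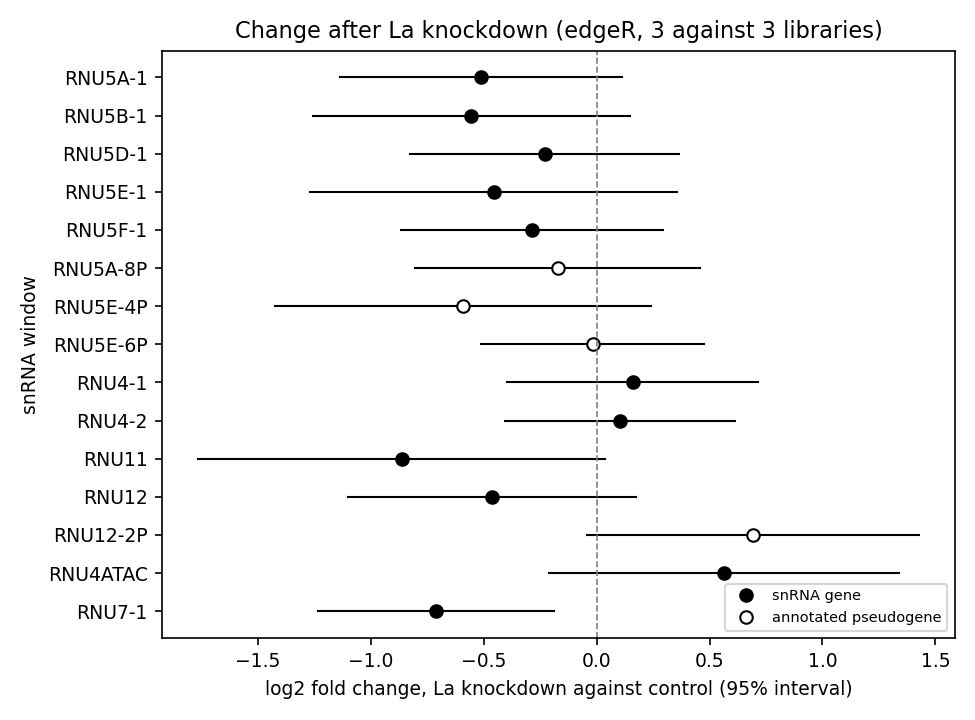
Log2 fold change (La knockdown against control) with its 95% interval for each of the 15 tested windows, from the edgeR fit to 3 against 3 libraries, with filled circles for snRNA genes and open circles for annotated pseudogenes. Only the interval of RNU7-1 (-1.23 to -0.19) lies clear of 0.

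All 62 windows together held 3.55% ± 0.653 of all counts in the controls and 2.43% ± 0.788 in the knockdown arm (SD, n = 3), from 4.11% in control replicate 1 to 1.60% in knockdown replicate 2. The difference of -1.12 percentage points was within the spread between libraries (two-sided exact permutation p = 0.2, smallest possible 0.1). It was -0.707 without knockdown replicate 2. When rRNA windows were left out of the total it was -1.02 (exact permutation p = 0.4). The 5 best-read members, RNU5E-1, RNU12, RNU5B-1, RNU5A-1 and RNU11, held 89.6% of member counts. Knockdown replicate 2 was the lowest library in 9 of the 15 tested windows and the highest in 4, namely RNU4-1, RNU4-2, RNU4ATAC and RNU12-2P. What set this library apart was not tested.

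**Figure D4:**
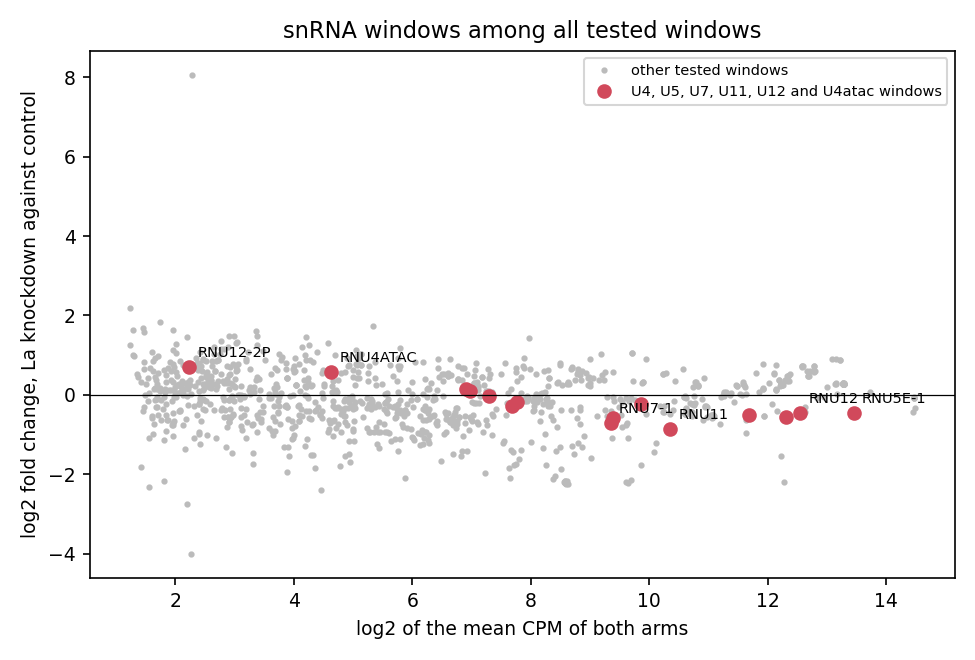
Log2 fold change (La knockdown against control) against the log2 of the mean CPM of both arms for all 1064 tested windows in grey and the 15 snRNA windows in red. The 5 best-read members (RNU5E-1, RNU12, RNU5B-1, RNU5A-1 and RNU11) lie below 0 and the 2 with the fewest reads (RNU4ATAC and RNU12-2P) above it, all within the cloud of other windows.

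The other spliceosomal RNAs, U1, U2, U6 and U6atac, were tested in 81 of 249 windows. None was called in either direction by edgeR after adjustment, and before it 1 was lower and 6 were higher with a p under 0.05. Their median log2 fold change was 0.01, with 40 of 81 below 0 (16 of 38 for U1, 18 of 34 for U2 and 6 of 9 for U6). This median mixes windows with many and few reads. By mean CPM, the best-read U1 windows ran from -0.30 (U1_52781) to -0.20 (U1_51207), and the next, U1_53267, stood at 0.41. The best-read U2 windows ran from -0.55 (U2_52893) to -0.18 (U2_51316), and the next, U2_53572, stood at 0.90. Each of these lists ends where the first window above 0 follows, so its sign is set by the cut and no direction is read from it. The share of U1, U2, U6 and U6atac in all counts was 6.13% ± 1.89 and 4.75% ± 0.351 (SD, n = 3, exact permutation p = 0.3), where control replicate 1 held 8.30%. This share takes in U1_53124, which overlaps the RNU12 window. Start sites of the protein genes of these particles were read too little to be tested. Windows were found for 42 of 45 genes listed for the Sm ring, the U5, U4/U6, U7 and minor particles, and snRNA assembly and transcription. Of their 64 windows 47 had a read and 0 passed the filter. Over all of them there were 83 counts in the controls and 114 in the knockdown libraries, as raw sums not scaled for library size. Some of these windows overlap, so a read may be counted more than once. The most for one window was 13, at TXNL4A, a U5 protein gene.

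In the authors' deposited table none of the 62 windows had an adjusted p under 0.05, where 0.149% of all windows were called lower and 0.00373% higher. Before adjustment 7 members, all with a negative log2 fold change, had a p under 0.05 in the authors' deposited table, against 1.11% of all windows called lower in this way. These shares are over 53603 windows, of which 21830 had a read in these libraries, and a window without a read cannot be called. The 7 therefore cannot be read as an excess over 1.11%. They included RNU5E-1, RNU5E-4P, RNU5A-1 and RNU5B-1, copies among which reads may be split. The authors' deposited table lists RNU11 at a log2 fold change of -1.07, for which its adjusted p was 0.173, and RNU7-1 at -0.98, with 0.401. The log2 fold changes of the authors' deposited table were lower than those fitted here by a median of -0.26 over the 15 windows, and RNU4-1 (-0.13) and RNU4-2 (-0.18) there lay below 0.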

How the data were processed

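Per the labels' protocols, small RNA of HEK293T cells (mirVana PARIS kit) was dephosphorylated, rephosphorylated by T4 polynucleotide kinase and prepared for sequencing with the NEBnext small RNA kit. Trim Galore, Bowtie2, bedtools and edgeR are named in the submitters' processing notes, with the build GRCh38 (hg38). Their settings, strand use and the placing of multi-mapping reads are not given in the sources used here. The authors deposited raw counts per 400 bp window. They also deposited their own comparison, which holds for each window a log2 fold change, a log2 CPM, an F score and p-values before and after adjustment.

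Members were named by overlap with RefSeq genes (GRCh38.p14), which gave a symbol for all 62. Counts were fitted with edgeR 4.0.16 in R 4.3.3 (filterByExpr, TMM factors, arm as the single term) on all windows, with Benjamini-Hochberg adjustment. Intervals were derived from the fold change and the F statistic. CPM are TMM-scaled. The fit was tested on simulated data. For shares and ratios the two-sided exact permutation test was used. The alternatives included other scalings, DESeq2 1.42.0, other filters, summed families, a replicate block and leaving out each library. Windows named by rule are the 15 tested members, among them the 11 snRNA genes listed by symbol for this purpose. The untested RNU4-82P and RNU7-19P were named after their counts were seen, as were the single U1 and U2 windows. Members, lists and tests were chosen with earlier results of these data known, and the ratios and the makeup of U5 after the counts were seen. p-values measure the spread between libraries, which the series calls biological replicates. Some sequences and annotations are not reported here.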

Additional observations from a re-analysis of the deposited data

How the results depend on the processing

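Member windows called lower, 0 with all libraries, became 1 (RNU11, log2 fold change -1.11) without a filter and stayed 0 under the other alternatives run; those called higher were 0 throughout. Before adjustment (p under 0.05) 1 was lower and 0 higher, which became 0 and 2 with upper quartile factors, 3 and 0 with library size alone, 7 and 0 without a filter, and 1 to 5 and 0 when a library was left out. Over all windows 51 were called lower and 7 higher, against 36 and 58 with upper quartile factors, 104 and 4 without a filter, 76 and 23 with DESeq2, 88 and 20 with a replicate block, and from 0 to 98 and 0 to 21 when a library was left out. Without La knockdown replicate 1 no window was called, so the members' 0 there says nothing of stability. Of 209 refitted values of the 15 named windows, 195 kept their direction and stayed short of the threshold, 13 reversed and 1 passed it; 9 of the 15 windows kept their direction in every alternative. With upper quartile factors RNU5F-1 became 0.035, RNU5D-1 0.085, RNU5E-6P 0.30, RNU5A-8P 0.14 and the member median 0.035. RNU5E-6P was 0.053 with RLE factors, 0.053 with DESeq2 and 0.020 when the 50 most-read windows were left out of library size. Without a filter RNU4-2 was -0.16 and RNU4-1 -0.11. Over the fits that left out a library RNU5E-6P ran from -0.066 to 0.049, RNU5A-8P from -0.44 to 0.033, RNU4-2 from -0.022 to 0.17 and RNU4-1 from -0.073 to 0.22, and the difference in the U4 share from -0.00224 to 0.00259 percentage points. The share of U1, U2, U6 and U6atac differed by 0.296 percentage points outside rRNA windows. The cause was not tested.

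A replicate block called 0 members, with 3 lower before adjustment (p under 0.05). Whether the replicate numbers pair the libraries could not be decided. The correlations of deviations from the arm means were 0.14, 0.23 and -0.46, but they rest on 3 libraries per arm. RNU12-2P had too few counts for the filter at a mean of 20. With 3 libraries per arm no interval was narrower than 0.988 on the log2 scale, so small changes were not detectable.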
